A study of Mus musculus with 6 samples.

Results

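The genes described are the nuclear genes for the subunits of the mitochondrial respiratory chain and ATP synthase, complexes I to V, with cytochrome c, in activated mouse CD8+ T cells with and without Dusp2. They were chosen by symbol from a table of 18122 rows: 85 rows matched the names of subunit genes (the Nduf, Sdh, Uqcr, Cox4 to Cox8 and Atp5 families, Cyc1 and Cycs), and 78 of them, whose mean over the libraries was 1 FPKM or more, were kept. FPKM is a fragment count per kilobase of gene, scaled to the library's mapped fragments. The 78 genes divide into 35 for complex I, 4 for complex II, 10 for complex III and its mobile carrier (Cycs is counted here), 12 for complex IV (Ndufa4 and Cox7a2l are counted here) and 17 for complex V. The other 7 matching rows fell below the limit, and they are given with the tissue isoforms.

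Lymph node CD8+ T cells of wild-type (WT) animals and of animals labelled Dusp2-/- (written Dusp2KO here) gave the RNA. Dusp2 encodes a nuclear phosphatase that removes phosphate from MAP kinases. Cells of every group were cultured for 18 h on plates coated with 1 µg/mL anti-CD3, in medium with 1 µg/mL anti-CD28, 50 ng/mL IFN-α and 20 ng/mL IL-4, and were then sorted into a fraction with very high surface CD44 (CD44hi) and a fraction with low CD44 (CD44lo). The labels call the cells of both fractions Tvm. There were 2 WT CD44hi, 2 Dusp2KO CD44hi, 1 WT CD44lo and 1 Dusp2KO CD44lo libraries, 6 in all. The titles give Dusp2-/-, while the treatment text of the same samples names Cd4-Cre mice with floxed Rpa1. Nothing in the labels says that libraries of one group are from different mice or cultures, so the p-values speak for the spread between these libraries alone, which may be technical, and age, strain and sex are not given there. The cells are a short culture under an added cytokine mixture, and a Dusp2-/- deletion, as the titles write it, is not confined to T cells.

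Dusp2 had 82.6 and 83.9 FPKM in WT CD44hi cells and 116 in WT CD44lo cells, against 0, 0.0283 and 0 in the Dusp2KO libraries, so the titles matched the gene in all 6 libraries. Cd44, which the sort used, was between 65.3 and 79.9 FPKM in CD44hi and at 1.43 and 1.33 in CD44lo. Cd8a was between 246 and 358 FPKM and Cd4 reached at most 0.0228. Of the markers of CD4 T, B, NK, myeloid, erythroid and dendritic cells found in the table, only Zbtb46 reached 1 FPKM, at 1.86 and 1.82 in the Dusp2KO CD44hi libraries against 0.619 and 0.653 in WT CD44hi. Recovered from the FPKM steps, the Dusp2KO CD44lo library held 23656148 reads and the other libraries 43136172 to 56237755. The 13 mitochondrially encoded genes took between 2.02% and 2.92% of these reads in the 4 CD44hi libraries, 2.54% in WT CD44lo and 3.77% in Dusp2KO CD44lo.

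The respiratory chain passes electrons from NADH (at complex I) and succinate (at complex II) through ubiquinone, complex III, cytochrome c and complex IV to oxygen, and complex V uses the proton gradient so built to make ATP. Each complex other than complex II is assembled from subunits of both genomes: the mitochondrial DNA encodes hydrophobic subunits at the catalytic and proton-pumping core, and nuclear genes encode the remaining core subunits and a larger number of supernumerary subunits. Naive T cells rely largely on oxidative phosphorylation, and activation through the T cell receptor is known to raise both glycolysis and mitochondrial mass.

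The highest levels per kilobase belonged to complex V genes. The catalytic β and α subunits of ATP synthase, Atp5b and Atp5a1, had mean levels of 435 and 397 FPKM over the 6 libraries. Atp5b was at 438 and 451 FPKM in WT CD44hi, 424 and 425 in Dusp2KO CD44hi, 439 in WT CD44lo and 433 in Dusp2KO CD44lo, and Atp5a1 was at 400 and 422, 392 and 387, 398 and 384 in the same order. These libraries lie close together, and neither gene passed the test in any comparison. The median level was 41.9 FPKM in complex I, 80.9 in complex II, 81.9 in complex III, 116 in complex IV and 61.8 in complex V. FPKM divides by the length of all exons of a gene joined, which is several times the main transcript for some of the genes (4522 bases for Ndufb7, whose principal transcript has 623). Per principal transcript the order changed: the medians were 71.3 FPKM in complex I, 126 in complex II, 135 in complex III, 185 in complex IV and 261 in complex V, and Atp5b stayed highest at 962.

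The promoters of 4 of the genes are shown. Atp5k and Cox6a1 are 2 of the genes that fell in Dusp2KO CD44hi cells, and Cox7a2l and Ndufv3 are the 2 genes that differed between the CD44 fractions with genotype accounted for. Ndufv3 fell in Dusp2KO CD44hi cells as well. Sequences are 170 bases before and 30 from the annotated start, 5′ to 3′ on the gene's strand, from RefSeq on GRCm38.p6. Capitals mark the NRF1 motif (GCGCA directly followed by TGCGC) and the ETS core CCGGAAG (found here as its reverse complement, CTTCCGG), which do not overlap.
Atp5k: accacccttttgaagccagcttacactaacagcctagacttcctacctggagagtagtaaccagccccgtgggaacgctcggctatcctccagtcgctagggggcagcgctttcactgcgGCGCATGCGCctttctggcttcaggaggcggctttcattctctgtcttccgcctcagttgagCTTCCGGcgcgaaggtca
Cox6a1: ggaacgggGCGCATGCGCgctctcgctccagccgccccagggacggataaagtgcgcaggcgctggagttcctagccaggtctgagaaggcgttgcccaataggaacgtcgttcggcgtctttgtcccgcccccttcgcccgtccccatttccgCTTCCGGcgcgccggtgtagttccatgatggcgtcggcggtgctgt
Cox7a2l: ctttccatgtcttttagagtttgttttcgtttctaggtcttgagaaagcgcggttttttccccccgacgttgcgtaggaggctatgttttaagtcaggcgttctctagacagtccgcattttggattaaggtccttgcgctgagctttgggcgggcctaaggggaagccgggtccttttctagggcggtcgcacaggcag
Ndufv3: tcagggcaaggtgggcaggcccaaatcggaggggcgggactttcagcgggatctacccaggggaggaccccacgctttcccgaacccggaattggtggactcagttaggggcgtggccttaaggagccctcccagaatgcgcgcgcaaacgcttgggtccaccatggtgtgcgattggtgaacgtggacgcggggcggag
They lie at chr5:108434370-108434569 (minus strand) for Atp5k, chr5:115348929-115349128 (minus) for Cox6a1, chr17:83514304-83514503 (minus) for Cox7a2l and chr17:31519945-31520144 (plus) for Ndufv3. Atp5k carries the NRF1 motif 50 bases before the start, and Cox6a1 carries it 162 bases before. NRF1 and the ETS factor GABP are known activators of many respiratory chain genes. A RefSeq promoter was found for 65 of the 78 genes (70 promoters of 300 bases, 250 before to 50 from the start, searched on both strands). The NRF1 letters were in 5 of the 70 promoters (7.1%, those of Atp5g2, Atp5k, Cox6a1, Ndufa11 and Uqcrc1), against 2.4% of 9603 promoters of the genes tested. The ETS letters were in 17 (24.3%) against 20.55%, and the YY1 letters AAGATGGC were in 10 (14.3%) against 5.13%. Atp5k and Cox6a1, shown above, were the only genes with both the NRF1 and the ETS letters. They do not stand for the other genes that fell. None of the 3 motifs was found in the window of Cox7a2l or Ndufv3. A match is a description of the letters and not of binding.

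In CD44hi cells, subunit genes of complexes I, III, IV and V were lower without Dusp2, by modest amounts. By limma on log2(FPKM + 1), adjusted over the 9691 genes tested, 32 of the 78 genes fell (by 0.21 to 0.54 on the log2 scale), 0 rose and 46 did not pass. Among all genes tested 13.8% were called lower and 12.9% higher. The median difference over the 78 genes was -0.25 on the log2(FPKM + 1) scale, against -0.02 over all genes. At an unadjusted p under 0.05, 53 were lower and 0 higher, where all genes had 2139 and 1862. Voom on the recovered reads called 33 lower and 0 higher, against 1422 and 1742 of all genes. In 65 genes both Dusp2KO libraries were below both WT libraries and in 3 (Ndufs1, Sdha and Uqcrc2) both were above, where the same held for 36.2% and 32% of all genes. The 78 genes took 1.18% and 1.28% of the recovered reads in WT CD44hi and 1.09% and 1.11% in Dusp2KO CD44hi, while the mitochondrially encoded genes took 2.13% and 2.02% against 2.71% and 2.92%, and the part of the latter in these differences was not tested. Bulk RNA cannot tell apart fewer cells with a transcript and less transcript per cell.

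**Figure D1:**
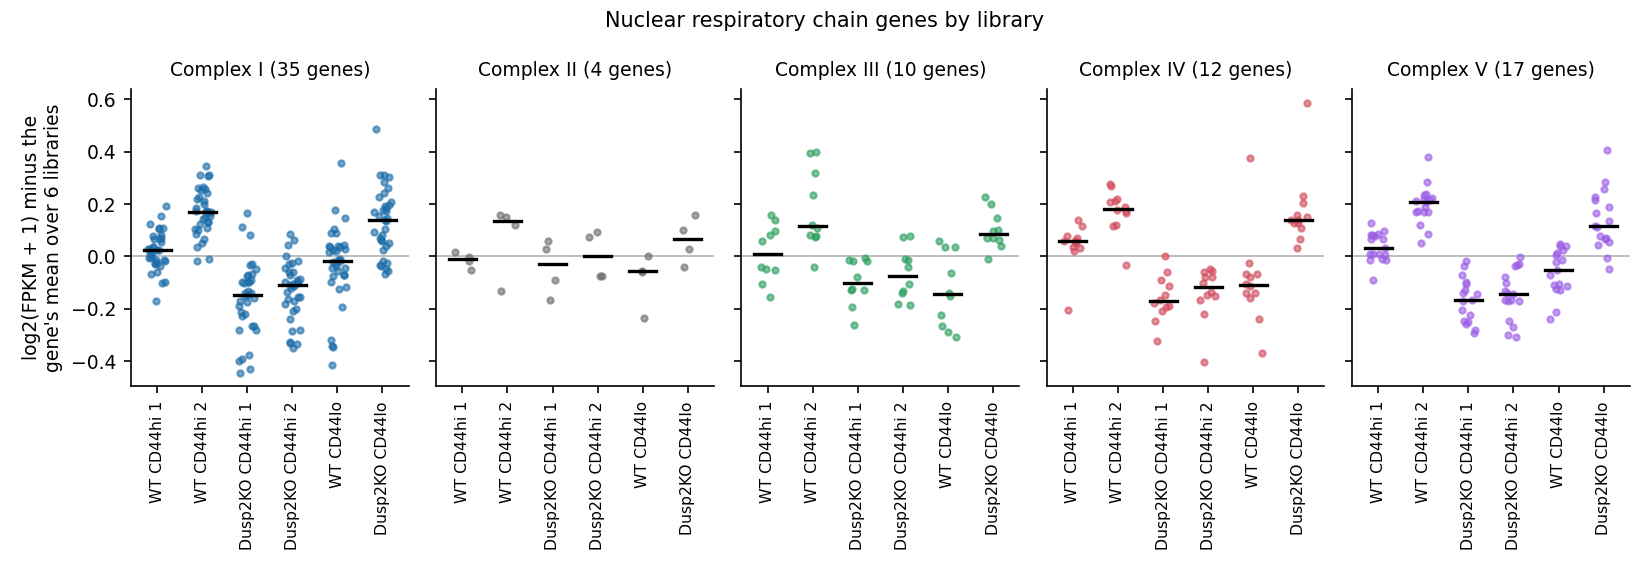
Each point is a gene's log2(FPKM + 1) in one library minus its mean over the 6 libraries, by complex, and the bar is the median. The medians over all 78 genes were 0.03 and 0.17 in WT CD44hi, -0.14 and -0.11 in Dusp2KO CD44hi, -0.06 in WT CD44lo and 0.13 in Dusp2KO CD44lo.

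The WT CD44hi libraries differed from each other in these genes. Replicate 2 was above replicate 1 in 71 of the 78 genes, with a median difference of 0.15 log2 units, where all genes had -0.04, while the Dusp2KO CD44hi libraries differed by 0.03. Without WT replicate 2 the median genotype difference was -0.16, and without WT replicate 1 it was -0.32. Without Dusp2KO replicate 1 it was -0.231, and without Dusp2KO replicate 2 it was -0.265. The calls depended on the library left out, and 7 of the 32 held in all alternatives but no filter. A fit of all 18122 rows with no filter on level called 0 of the 78, and 2 genes in all.

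Complex I takes electrons from NADH. Its 7 nuclear core subunits include those that carry the flavin and the iron-sulfur clusters, and supernumerary subunits surround the core. The genes kept include 28 supernumerary subunits. Of the core subunits 1 fell, Ndufs3, with a median of -0.16 over the 7, and of the supernumerary subunits 12 fell, with a median of -0.26. With the trend on gene length removed the medians were -0.09 and -0.17. The median lengths were 2178 and 1185 bases. Ndufs3 was at 41.4 and 46.0 FPKM in WT CD44hi and 36.7 and 36.1 in Dusp2KO CD44hi, without overlap, a difference of -0.26 ± 0.07 (SE; adjusted p = 0.0407, limma), and 6 of 12 alternatives ended this call. Ndufs1, the largest iron-sulfur subunit, stood at 12.8 and 12.8 FPKM in WT and 13.7 and 13.6 in Dusp2KO (0.09 ± 0.06, limma adjusted p = 0.339). Ndufs7, at the ubiquinone site, differed by -0.10 (limma adjusted p = 0.274). Ndufs8, Ndufv2 and Ndufv1, the last of which binds NADH, differed by -0.20, -0.15 and -0.20 (limma adjusted p = 0.0999, 0.249 and 0.0638). None of these 5 passed.

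The smallest p of complex I belonged to Ndufa6, a supernumerary subunit of the LYR family in the matrix arm. It was at 34.9 and 37.3 FPKM in WT CD44hi and 25.1 and 26.2 in Dusp2KO CD44hi, so that the groups were separated by more than their spread (-0.48 ± 0.07 SE, limma adjusted p = 0.00538). Ndufa7, a supernumerary subunit of the matrix arm, fell from 30.3 and 35.5 to 24.5 and 24.1 FPKM (-0.42 ± 0.09, limma adjusted p = 0.0168). Ndufa3, a small membrane subunit, fell from 18.3 and 23.0 to 13.7 and 14.9 FPKM (-0.49 ± 0.11, limma adjusted p = 0.0224). The complex I genes with the highest FPKM did not pass: Ndufc2 was at 139 and 139 FPKM in WT against 129 and 136, and Ndufa8 at 89.8 and 103 against 78.9 and 80.7 (limma adjusted p = 0.526 and 0.0532). Per principal transcript Ndufb7 was highest in complex I, at 152 FPKM, and it fell (-0.37 ± 0.09, limma adjusted p = 0.0263). Ndufb7 was named after its values were seen. The gene nearest the limit on level was Ndufb8, with a mean of 1.65 FPKM, at 1.67 and 2.13 in WT CD44hi and 0.942 and 1.33 in Dusp2KO CD44hi.

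Complex II, succinate dehydrogenase, is the enzyme shared with the TCA cycle and is wholly encoded in the nucleus. None of its 4 genes passed, at a median of -0.07, and 1 had an unadjusted p under 0.05. Sdha, the flavoprotein, was at 91.7 and 82.5 FPKM in WT CD44hi and 94.3 and 96.8 in Dusp2KO CD44hi, higher in both (0.13 ± 0.07 SE, limma adjusted p = 0.221). Sdhb, the iron-sulfur subunit, was at 70.1 and 79.3 against 63.1 and 67.3 (-0.19 ± 0.08, limma adjusted p = 0.121). The membrane anchors Sdhc and Sdhd differed by -0.14 and 0.00 (limma adjusted p = 0.160 and 0.981). That complex II moved differently from the other complexes was not tested.

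Complex III passes electrons from ubiquinol to cytochrome c. Of its 5 small subunits 3 fell, with a median of -0.34, or -0.21 with the trend on gene length removed. Uqcrq led them, going from 89.2 and 105 FPKM in WT CD44hi to 69.6 and 72.7 in Dusp2KO CD44hi (-0.44 ± 0.09 SE, limma adjusted p = 0.0170). Uqcr10 fell from 140 and 159 to 116 and 118 FPKM (-0.34 ± 0.08, limma adjusted p = 0.0243). In both genes the lower WT library lay above the higher Dusp2KO library. Of the large core proteins, Uqcrc1 fell from 58.9 and 58.6 to 50.9 and 50.4 FPKM (-0.21 ± 0.06, limma adjusted p = 0.0412; the call ended in 6 of 12 alternatives), while Uqcrc2 was at 95.9 and 96.8 against 98.4 and 98.6 (0.03 ± 0.06, limma adjusted p = 0.726). The subunits that carry the electrons, Cyc1 (cytochrome c1) and Uqcrfs1 (the Rieske protein), differed by -0.13 and -0.02, and the mobile carrier Cycs by 0.05 (limma adjusted p = 0.182, 0.905 and 0.735).

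Complex IV reduces oxygen. All 12 of its genes had both Dusp2KO CD44hi libraries below both WT CD44hi libraries, and 6 passed, at a median of -0.26. Cox6c had the smallest p: 29.9 and 33.2 FPKM in WT against 25.6 and 24.3 (-0.33 ± 0.07 SE, limma adjusted p = 0.0231). The members with the highest FPKM, Cox8a and Cox6a1, both small subunits around the catalytic core, fell from 265 and 309 to 214 and 229 FPKM (-0.37 ± 0.10, limma adjusted p = 0.0343) and from 262 and 259 to 206 and 217 FPKM (-0.30 ± 0.07, limma adjusted p = 0.0267). Per principal transcript Ndufa4, named after its values were seen, was highest in complex IV, at 342 FPKM. It did not pass (-0.21 ± 0.07, limma adjusted p = 0.0647). The 7 matching rows below the limit on level included the isoforms of complex IV known from muscle, lung and testis. Cox8b, Cox4i2, Cox7a1, Cox6a2 and Cox6b2 had means between 0.0188 and 0.752 FPKM, and the complex I paralogue Ndufa4l2 had 2 reads in 1 library and 0 in the other libraries. Just under the limit stood Ndufb2, with a mean of 0.836 FPKM and 128 to 281 reads per library over a joined exon length of 5628 bases.

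Complex V makes ATP. Of its 17 genes 9 fell, at a median of -0.28. By place in the enzyme, the F1 part had 2 of 5 (Atp5d and Atp5e) and the c ring, which turns with proton flow, 1 of 3 (Atp5g1). The peripheral stalk had 1 of 4 (Atp5o), and the small membrane subunits all 5 (Atp5k, Atp5mpl, Atp5j2, Atp5l and Atp5md). Genes in these counts other than Atp5k and Atp5mpl were named after their values were seen. Atp5k, the e subunit where ATP synthase dimers meet, went from 13.2 and 14.6 FPKM in WT CD44hi to 10.1 and 10.2 in Dusp2KO CD44hi (-0.42 ± 0.07 SE, limma adjusted p = 0.0104). The Dusp2KO libraries were both below WT and close to each other. The median over the 5 small membrane subunits was -0.32, and -0.29 with the trend on gene length removed. That removal took the median of F1 from -0.16 to -0.07 and that of the c ring from -0.26 to -0.17. The peripheral stalk went from -0.26 to -0.18. Atp5b, Atp5a1 and the γ subunit Atp5c1 differed by -0.07, -0.08 and -0.16 and did not pass (limma adjusted p = 0.573, 0.513 and 0.197).

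In CD44lo cells most of the same genes had the opposite sign. With 1 library per genotype there is no replicate check and no test. Dusp2KO stood above WT in 67 of the 78 genes, where 48.4% of all genes were higher, and the median difference was 0.20 log2 units against -0.01 over all genes. The medians by complex were 0.15 for complex I, 0.19 for complex II, 0.22 for complex III, 0.25 for complex IV and 0.18 for complex V. With the trend on gene length removed, 58 of the 78 were higher, the median was 0.06, and the medians of complexes I and V were 0.04 each. All genes of complexes III and IV were higher before that removal. Atp5mpl was at 34.3 FPKM in WT CD44lo and 53.3 in Dusp2KO CD44lo, and Cox7c at 55.4 and 79.3. Uqcr10 was at 106 and 131, while Sdha, at 90.7 and 88.0, and Ndufs1, at 12.5 and 12.3, were close to level. Both patterns at once, lower in Dusp2KO CD44hi without overlap and higher in Dusp2KO CD44lo, held in 56 of the 78 genes and in 14.5% of all genes. The Dusp2KO CD44lo library had the fewest reads and the highest mitochondrial share of the 6, and the part of either in these values was not tested.

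**Figure D2:**
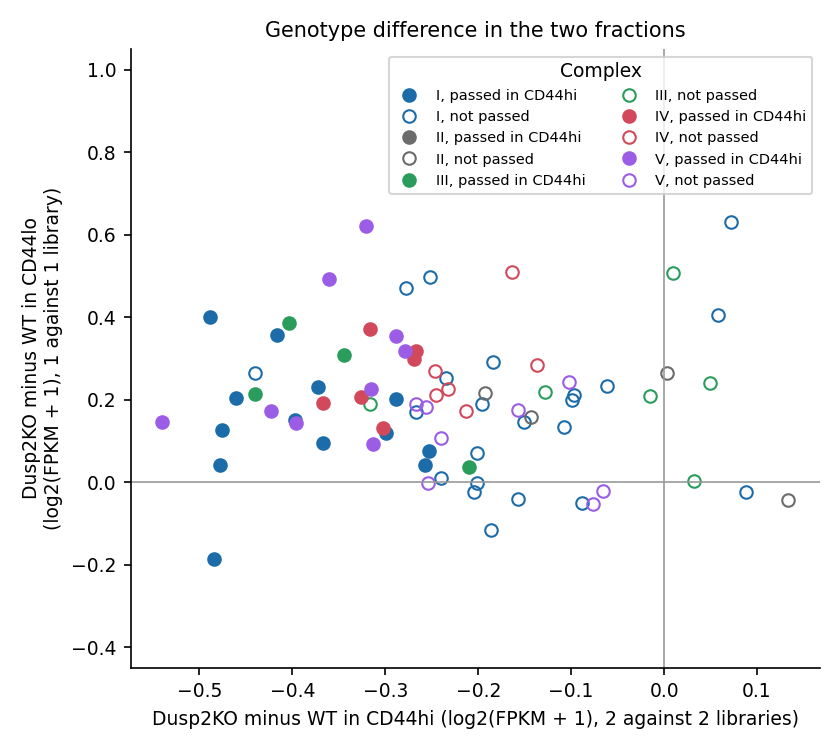
Each point is a gene: the horizontal axis is the Dusp2KO minus WT difference in CD44hi (2 against 2 libraries), the vertical axis that in CD44lo (1 against 1), both in log2(FPKM + 1), and filled points passed the limma test in CD44hi. All 32 filled points lie left of 0, and 67 of the 78 genes lie above 0.

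The interaction asks whether the genotype difference in CD44hi differed from that in CD44lo, and it rests on the spread of the CD44hi pairs for the single CD44lo libraries. Over the 9691 genes, 1.49% were called lower and 2.73% higher. Of the 78 genes 8 were lower and 0 higher, at a median of -0.44 against -0.01 over all genes. At an unadjusted p under 0.05, 55 were lower and 0 higher, where all genes had 1364 and 1435. By voom the counts were 19 and 0, against 238 and 604 of all genes. The sign of the median held in all the alternatives run, but the count moved. It was 0 with no filter on level, where 39 of all genes were called. With a replicate block it was 44, where 1565 of all genes were called, against 409 in the main fit. Without WT CD44hi replicate 1 the median was -0.52. Atp5mpl, a small proteolipid of the ATP synthase membrane part, was at 39.5 and 47.3 FPKM in WT CD44hi, 33.4 and 35.5 in Dusp2KO CD44hi, 34.3 in WT CD44lo and 53.3 in Dusp2KO CD44lo. It was low in WT CD44lo and Dusp2KO CD44hi and high in the other libraries (-0.94 ± 0.16 SE, limma adjusted p = 0.0412). Cox7c, a small subunit of complex IV, was at 77.9 and 80.7, 72.0 and 69.4, 55.4 and 79.3 FPKM in the same order, and the WT CD44lo library stood apart (-0.67 ± 0.11, limma adjusted p = 0.0369). Ndufa7 had -0.77 ± 0.15 and Ndufa6 -0.60 ± 0.11 (limma adjusted p = 0.0458 for each). In complexes II and III no gene passed, Uqcr10 coming nearest in complex III (-0.65 ± 0.14, limma adjusted p = 0.0533) and Sdhb in complex II (-0.41 ± 0.14, limma adjusted p = 0.121).

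**Figure D3:**
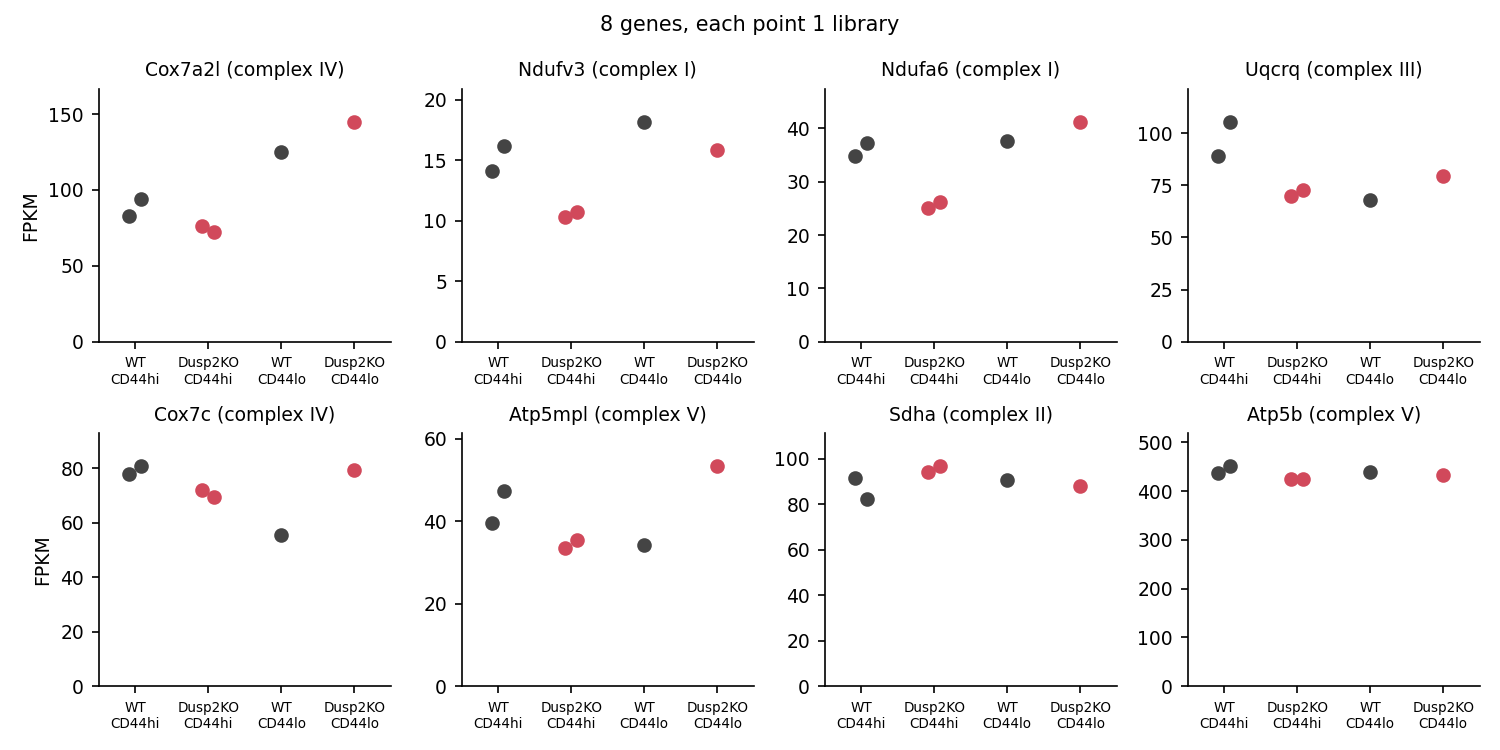
FPKM of 8 genes, each point 1 library, black WT and red Dusp2KO, with axes from 0. Atp5b spans 424 to 451 and Sdha 82.5 to 96.8, with its 2 highest libraries in Dusp2KO CD44hi, Cox7a2l is highest in both CD44lo libraries (125 and 145), and Ndufa6 is lowest in the Dusp2KO CD44hi libraries (25.1 and 26.2).

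The CD44 fractions were then compared within each genotype. These comparisons share the CD44hi libraries with the genotype comparison, so the values stand side by side and add no independent evidence. In WT, 10 genes were higher in CD44hi (by 0.29 to 0.64 log2 units) and 1 was lower, against 15.4% and 10.7% of all genes, with a median of 0.16 where all genes had 0.05. The 10 included 4 small subunits of complex III. Ndufa12, a supernumerary subunit of complex I, was at 50.9 and 60.3 FPKM in WT CD44hi and 35.2 in WT CD44lo (0.64 ± 0.11 SE, limma adjusted p = 0.00745), and Cox7c rose by 0.51 ± 0.08 (limma adjusted p = 0.00488). The median was 0.24 without WT replicate 1 and 0.10 without WT replicate 2, where all genes had 0.03 and 0.07. In Dusp2KO, 30 genes were lower in CD44hi (by 0.25 to 0.95 log2 units) and 0 higher (0 also at an unadjusted p under 0.05 and by voom), against 16.5% and 23.6% of all genes, with a median of -0.24 where all genes had 0.05. Ndufa3 had 13.7 and 14.9 FPKM in the CD44hi libraries and 27.1 in the CD44lo library (-0.88 ± 0.14, limma adjusted p = 0.00367). Atp5mpl fell by 0.62 ± 0.12 and Ndufa6 by 0.66 ± 0.08 (limma adjusted p = 0.00734 and 0.00158). The median was -0.22 without Dusp2KO replicate 1 and -0.23 without Dusp2KO replicate 2, where all genes had 0.04 and 0.05. With the length trend removed the Dusp2KO median was -0.06, with 16 genes lower and 3 higher, and complex III then had a median of 0.05. Rescaled to a total of 1000000, 15 were lower and 1 higher. Of all genes 4123 were called when rescaled and 3711 with the length trend removed, against 3888 in the main fit.

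With genotype accounted for, 2 genes were lower in CD44hi and 0 higher (4 and 0 at an unadjusted p under 0.05, 2 and 0 by voom), against 10.8% and 16.6% of all genes. This model has no interaction term. Its median of -0.05 averages medians of opposite sign, 0.16 in WT and -0.24 in Dusp2KO. A fraction difference that varies with genotype also adds to the spread of this model, which makes passing harder. Cox7a2l, which links complex III to complex IV in supercomplexes, was at 83.1 and 93.9 FPKM in WT CD44hi and 76.5 and 72.3 in Dusp2KO CD44hi, against 125 in WT CD44lo and 145 in Dusp2KO CD44lo. Both CD44lo libraries were above all 4 CD44hi libraries (-0.72 ± 0.12 SE, limma adjusted p = 0.00417). It passed within each genotype as well, at -0.50 in WT and -0.95 in Dusp2KO (limma adjusted p = 0.0134 and 0.000864). Ndufv3, a supernumerary subunit at the NADH-binding module named after its values were seen, was at 14.1 and 16.2, 10.3 and 10.7, 18.1 and 15.8 FPKM in the same order. The lowest 2 libraries were Dusp2KO CD44hi, and the WT CD44hi range overlapped the CD44lo values (-0.40 ± 0.10, limma adjusted p = 0.0238). Within a genotype Ndufv3 differed by -0.25 in WT, which did not pass, and by -0.55 in Dusp2KO. With the length trend removed, 2 were lower and 6 higher. By size, the most positive of each complex were Ndufa12 (0.27), Sdhd (0.15), Uqcrq (0.18), Cox7c (0.17) and Atp5c1 (0.03), and the most negative beside Cox7a2l were Ndufa3 (-0.43), Sdhb (-0.08), Uqcrh (-0.20) and Atp5h (-0.20), none of which passed.

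The genes are short, and the genotype differences moved with gene length across the table. The median joined exon length was 1696 bases in the 78 genes and 4298 in all genes tested. Over all genes, the Spearman correlation of length with the difference (across genes, which are not independent replicates) was 0.27 for genotype in CD44hi, -0.33 for genotype in CD44lo and 0.48 for the interaction. It was -0.32 for WT CD44hi replicate 2 minus replicate 1, which have the same labels. Over the 78 genes it was 0.23, -0.29, 0.36 and -0.13. Within each range of length the members had a lower median than all genes in CD44hi. Up to 1000 bases the medians were -0.30 (17 members) and -0.19 (585 genes). From 1000 to 2000 they were -0.26 (31) and -0.14 (995), from 2000 to 4000 -0.19 (21) and -0.05 (2862), and above that -0.18 (9) and 0.03 (5249). In CD44lo the medians of members and all genes were 0.20 and 0.07, 0.21 and 0.14, 0.13 and 0.06, and 0.09 and -0.09 in the same ranges. With a loess trend on length removed from each library, the median genotype difference was -0.16 in CD44hi with 21 genes lower, 0.06 in CD44lo, and -0.21 for the interaction with 1 gene lower, which was none of the 8 called without the removal.

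**Figure D4:**
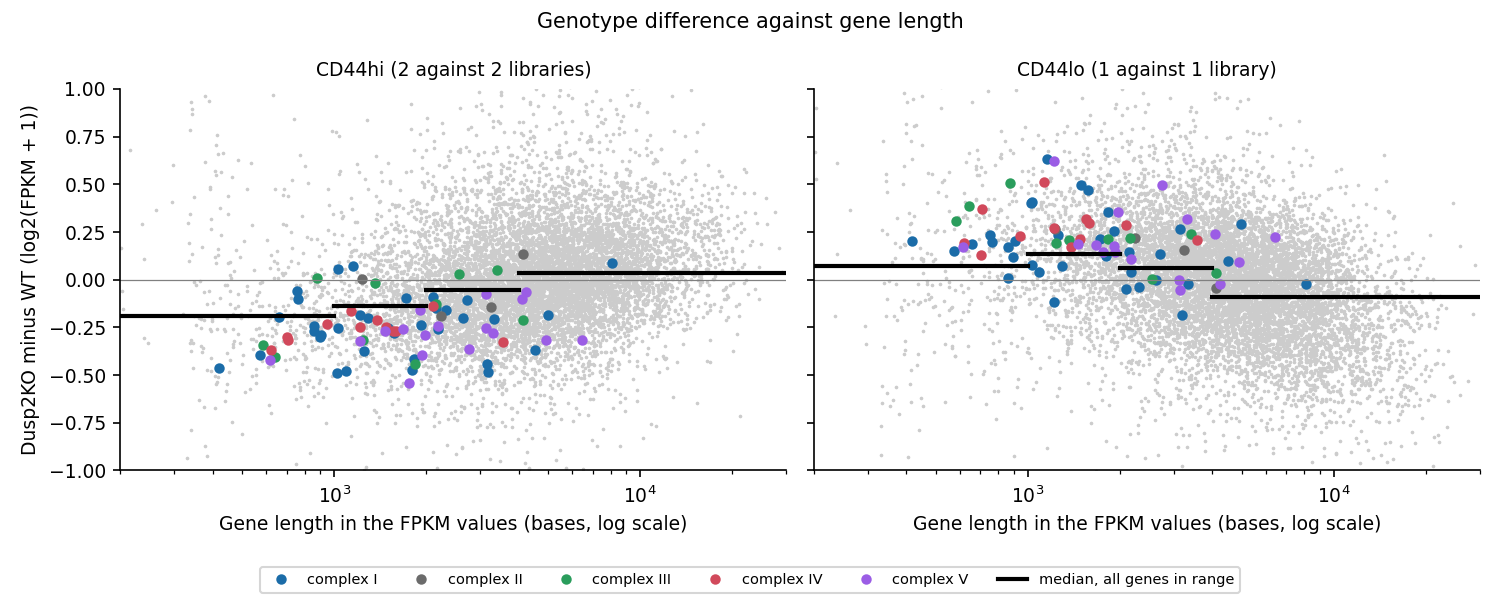
Dusp2KO minus WT in log2(FPKM + 1) against gene length on a log axis, in CD44hi and CD44lo; grey points are all genes tested, coloured points the 78 genes, and black lines the medians of all genes up to 1000, 1000 to 2000, 2000 to 4000 and over 4000 bases (points beyond the axes are not drawn). The lines climb with length in CD44hi, from -0.19 to 0.03, and fall from the range of 1000 to 2000 bases onward in CD44lo, from 0.14 to -0.09.

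Lists of related genes were counted beside the subunits. The 13 mitochondrially encoded subunits went the other way in CD44hi: 8 were higher in Dusp2KO and 0 lower, at a median of 0.45, and in CD44lo their median was 0.56. COX2, a catalytic subunit of complex IV, was at 36.0 and 34.0 FPKM in WT CD44hi and 47.7 and 50.3 in Dusp2KO CD44hi (0.47 ± 0.07 SE, limma adjusted p = 0.00532). Mean levels within this list were far apart, from 1.40 FPKM for ATP8 and 52.0 for COX2 to 8428 for COX1. COX1, of the same complex as COX2, did not pass (0.40 ± 0.20, limma adjusted p = 0.176). ND5, a proton-pumping subunit of complex I, was at 830 and 842 against 1292 and 1388. Nuclear copies of mitochondrial sequence can take or lose reads of these genes, which was not tested. Of 43 assembly factors of the complexes, 3 rose (Cox11, Taco1 and Tmem70) and 6 fell, at a median of -0.07. Uqcc3, which helps assemble complex III, was at 31.9 and 35.1 FPKM in WT CD44hi and 22.4 and 19.3 in Dusp2KO CD44hi (-0.66 ± 0.09, limma adjusted p = 0.00506). Of 17 genes of the TCA cycle and pyruvate dehydrogenase, 2 rose (Suclg2 by 0.41 and Dlat, of pyruvate dehydrogenase, by 0.28) and 0 fell. Of 14 regulators of mitochondrial biogenesis 2 rose (Pprc1 by 0.33 and Polg by 0.32) and 0 fell. A list of 10 genes held ATP and phosphate transporters, an ATP synthase inhibitor, Ucp2, Higd1a and Higd2a. Of these 3 fell (Ucp2 by 0.44, Higd1a by 0.30 and Higd2a by 0.23) and 0 rose. The transporters Slc25a3, Slc25a4, Slc25a5, Vdac1, Vdac2 and Vdac3 and the inhibitor Atpif1 did not pass (limma adjusted p from 0.0547 to 0.979). The medians of the last 3 lists were 0.04, -0.01 and -0.09. Among all genes 12.9% were called higher and 13.8% lower. The counts for assembly factors lower, TCA cycle and pyruvate dehydrogenase genes higher, and regulators higher stood near that background. The genes named from these lists were named after their values were seen.

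Sequence shared with other genes limits some values. Of the 77 genes with a GENCODE model, 49 shared at least one stretch of 50 bases with the transcripts of another gene, and 8 shared over 20% of such stretches (41.6% in Atp5o, 38.3% in Atp5g2 and 26.1% in Cycs). Of the 8, 2 are among the 32 genes that fell in CD44hi. Exons of Atp5o, Ndufb6 and Ndufa13 overlapped another gene over more than 20% of their bases. How the authors' counting treated such reads, and strand, is not given in the sources used here, so these values are uncertain.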

How the data were processed

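Bulk RNA-seq values of 6 mouse libraries were used as deposited by the authors, in FPKM, in a table of 18122 rows. HISAT2 2.0.5 and, with no role stated, the builds mm39 and hg38 are listed, per the submitters' processing notes. For the counter, annotation and filter, the sources used here give nothing. RNA was extracted, per the labels' protocols, with Trizol and libraries followed Illumina protocols. The description also names 10X Genomics. All columns matched a title, and 0 were left unused.

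FPKM values were whole multiples of 1 read: 100% of 16220 rows above 0 in at least 2 libraries came out whole within 1e-06 reads (0% of 2000 perturbed rows), and 1902 rows above 0 in a single library were set to 1 read there. The implied length equalled the joined exon length in GENCODE vM21 (GRCm38), times a whole number, for 96.5% of 9323 genes over 1000 reads (tolerance 0.001). The annotation so matched is not of the mm39 named in the notes. Depth limits the precision of low genes.

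Differences were tested two-sided with limma 3.58.1 in R 4.3.3, with its mean-variance trend. The values were log2(FPKM + 1), with 1 as the pseudocount, of the 9691 genes that averaged 1 FPKM or more. P-values were adjusted by Benjamini-Hochberg and 0.05 was the limit. The log scale understates changes of low genes. A group model (2 residual degrees of freedom, all from CD44hi) and an additive model of genotype and fraction (3) were fitted. Alternatives were a pseudocount of 0.1, no filter, a minimum of 5 FPKM, median-ratio scaling, a total of 1000000, removal of a loess length trend (span 0.5), limma's voom with TMM scaling on the recovered reads, a replicate block and leaving out each CD44hi library.

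Replicate 1 minus 2 in WT and in Dusp2KO CD44hi correlated at 0.02 over genes, so equal numbers were not taken to pair libraries. Named genes were all of complex II, the nuclear core and redox subunits of complexes I and III with Cycs, the 2 with the highest mean FPKM in each of complexes I, III, IV and V, per complex the smallest p in each direction (genotype in CD44hi, interaction) and the largest difference in each direction (fractions with genotype accounted for), tissue isoforms, those nearest the level limit, and Dusp2 and Cd44. The values of 1 gene under this rule are not reported here. The members, lists and tests were chosen with earlier results of these data known. Promoters came from RefSeq tables of GRCm38.p6, and the 13 genes without one are named only.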

Additional observations from a re-analysis of the deposited data

Results flagged for a closer look

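The genotype difference in CD44hi differed from that in CD44lo, by the interaction test, in 8 of the 78 genes (limma adjusted p from 0.0369 to 0.0496). The differences were -0.94 for Atp5mpl, -0.77 for Ndufa7, -0.75 for Ndufa12, -0.69 for Cox6b1, -0.67 for Cox7c, -0.66 for Ndufa1, -0.60 for Ndufa6 and -0.60 for Atp5j2, on the log2(FPKM + 1) scale. Of all genes tested, 1.49% were called lower and 2.73% higher. In each of the 8, both Dusp2KO CD44hi libraries were below both WT CD44hi libraries, and the Dusp2KO CD44lo library was above the WT CD44lo library. That pattern held in 14.5% of all genes. The same libraries gave the interaction that picked the 8, so it adds no evidence. Ndufa1 was at 67.3 and 71.5 FPKM in WT CD44hi, 47.3 and 53.2 in Dusp2KO CD44hi, 62.6 in WT CD44lo and 72.3 in Dusp2KO CD44lo. Cox6b1 was at 178 and 198, 149 and 152, 155 and 201 FPKM in the same order, and Atp5j2 at 32.6 and 34.8, 27.8 and 27.3, 28.1 and 35.3. With the trend on gene length removed, none of the 8 kept the call. These adjusted p-values lie close to the threshold, and none of the 8 calls held in every alternative with a filter on level.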

How the results depend on the processing

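The sign of the members' median held under every alternative run in the comparisons of genotype, of the fractions within a genotype, and in the interaction. Some alternatives could not change it. Dropping the filter changed no median. For genotype in CD44lo the block and leaving out a CD44hi library left 0.196 by construction. Leaving out a library of the other genotype could not move the fractions within a genotype. No alternative left out a CD44lo library. For the fractions with genotype accounted for, where it was near 0 (-0.046), it became 0.016 when rescaled to the total and 0.021 with the length trend removed. Of 431 recomputed values of named genes that had passed, 336 stayed past the threshold, 95 did not and none changed sign. Some values that had not passed changed sign with the length trend removed, among them genotype in CD44hi for Uqcrfs1 (-0.015 to 0.097) and Ndufc2 (-0.061 to 0.071). For genotype in CD44hi (32 called, median -0.249) the count was 0 with no filter, 21 with median-ratio scaling and 21 with the length trend removed (median -0.16), and leaving out 1 CD44hi library gave counts of 10 to 61 and medians of -0.315 to -0.159. In all alternatives but no filter, 7 genes kept the call (Atp5e, Atp5k, Ndufa3, Ndufa6, Ndufa7, Ndufa11 and Ndufv3). For genotype in CD44lo the median of 0.196 became 0.091 when libraries were rescaled to a total of 1000000 (all genes then at -0.113) and 0.062 with the length trend removed. For the fractions in WT (11 called) the count was 1 with no filter, 7 with median-ratio scaling and 17 with the length trend removed. Of all genes 1170, 2571 and 2917 were called in the same order, against 2527 in the main fit. With a library left out the medians were 0.1 to 0.242. For the fractions in Dusp2KO (30 called) it was 4 with no filter, 16 rescaled to the total (15 lower, 1 higher, median -0.107, all genes 0.184), 19 with the length trend removed (16 lower, 3 higher, median -0.062) and 15 to 53 with a library left out. For the interaction (8 called) it was 0 with no filter, 24 at a minimum of 5 FPKM, 2 rescaled to the total (median -0.288, all genes 0.133), 1 with the length trend removed (none of the 8, median -0.209), 19 with voom and 8 to 65 with a library left out (medians -0.524 to -0.366). For the fractions with genotype accounted for (2 called) the count was 1 with no filter and 8 with the length trend removed (6 higher, 2 lower). Of all genes 2089 and 3170 were called in the same order, against 2655 in the main fit. With a library left out the medians were -0.093 to -0.007. A fit with a replicate block called 48 genes for genotype in CD44hi and 44 for the interaction. Of all genes it called 3326 and 1565, and the numbers were not shown to pair the libraries. Leaving out a library leaves its group with 1 library, assumed to vary like the other group. With fewer or more genes tested the adjustment changes, and for the other alternatives the cause was not tested. The shallowest library, Dusp2KO CD44lo, has no replicate.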
